A study of Mus musculus with 8 samples.

Results

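The nuclei described here are those in which no RNA molecule of Sox9 was read, taken from 4 single-nucleus libraries of mouse lung cell cultures that differ widely in their total Sox9. A nucleus was included if it had at least 1000 UMIs (unique molecular identifiers, each standing for an RNA molecule that was captured), 0 Sox9 UMIs, and fewer than 50 UMIs of the airway genes Scgb3a1 and Bpifa1 together per 10000 UMIs. This left 5429 of 7224 deposited nuclei. The libraries are the 4 barcode prefixes, named A to D in sorted order. The 2 with the most Sox9 per 10000 UMIs, C and D, are called Sox9-rich and the other 2, A and B, Sox9-poor.

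The cultures were alveolarspheres grown from type II alveolar epithelial (ATII) cells of young and old mice, in a medium free of serum and feeder cells. On day 9 they received an adeno-associated virus, AAV9_Cre or AAV9_Sox9Cre, the latter adding Sox9 to the Cre recombinase. All cultures then spent 4 days in differentiation medium meant to yield type I (ATI) cells, and live tdTomato+ cells were sorted, so that all nuclei share Cre, the reporter and this medium. The labels give genotype Sox9Cre with treatment Sox9 overexpression, or genotype Cre with treatment control, with 2 RNA and 2 chromatin (ATAC) samples each; number, age and pooling of mice per sample are not stated there. No label ties a barcode prefix to a sample. A library is therefore never called treated or control here, and whether each prefix is a separate culture is not given.

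ATII cells make surfactant and serve as stem cells of the alveolus, while ATI cells are the flat cells of gas exchange. Sox9 is a transcription factor with an HMG box that marks the growing tips of the embryonic lung and directs cartilage formation, where Sox5 and Sox6 are its partners. It binds DNA at short motifs related to ACAAAG and ACAATG.

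Sox9 stood at 0.0147, 0.0142, 1.08 and 0.939 UMIs per 10000 in libraries A to D over all nuclei with at least 1000 UMIs. These values chose the sides and are not a finding. Because the sides were set by a measured level and not by labels, no test between them was made: levels are given per library, with exact Poisson 95% intervals that cover counting error only, and no mean or p-value is given. The nuclei kept numbered 1241, 750, 2124 and 1314 in libraries A to D, as the plot of Sox9 level and nuclei kept shows. They made up 99.0% and 98.7% of such nuclei in A and B, against 65.8% in C and 68.2% in D.

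**Figure D1:**
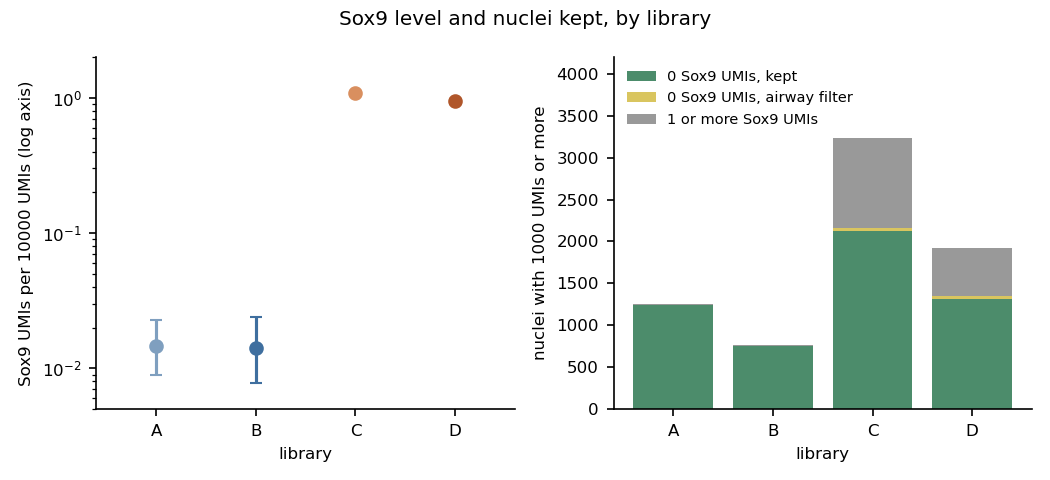
Left, Sox9 UMIs per 10000 UMIs over nuclei with at least 1000 UMIs in each library, on a log axis with exact Poisson 95% intervals (smaller than the points in C and D). Right, nuclei of each library by Sox9 UMIs and airway filter. C and D sit near 1 UMI per 10000 and A and B near 0.014, while most nuclei of every library have no Sox9 UMI.

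A nucleus with 0 Sox9 UMIs is not shown to lack Sox9 RNA, since few molecules are read per nucleus. In C the share of nuclei with 0 Sox9 UMIs was 82.9% among those with 1000 to 5000 UMIs and 55.4% among those with 20000 or more, and in D 85.6% and 60.5%. Just outside the limit, 495 nuclei of C and 274 of D had exactly 1 Sox9 UMI, against 8 in A and 6 in B. The airway limit removed 42 nuclei in C, 39 in D and 0 in A and B; the highest level kept was 49.0 and the lowest removed 51.8 per 10000. Kept nuclei held 13391429, 9669172, 24562016 and 16217866 UMIs in A to D, with medians of 9833, 11624.5, 10321.5 and 11111 per nucleus. ATAC depth differed more, with medians of 4451, 3875.5, 9075.5 and 13301.5 counts in peaks. Between libraries, 20 barcode sequences occurred more than once.

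The labelled cell type could be recognised in all 4 libraries. Sftpc, the surfactant protein C gene that defines ATII cells, stood at 436, 432, 444 and 468 UMIs per 10000 in A to D. Ager, an ATI gene, stood at 36.2, 38.2, 27.7 and 29.3, so both Sox9-rich libraries were below both Sox9-poor ones. Nuclei were also split by the highest of 3 standardised scores (ATII, ATI and transitional genes, the last marking cells between both types), which gives ranges and not cell types. The ATII-high range took 36.0% and 32.9% in A and B and 43.2% and 39.8% in C and D, and the ATI-high range 34.6%, 33.9%, 27.8% and 26.8%.

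Few genes separated the Sox9-rich from the Sox9-poor libraries once nuclei with Sox9 UMIs were set aside. A gene was called when the nearest pair, the lower library of one side and the higher of the other, differed at least 1.5-fold, with at least 100 UMIs over the 4 libraries and any count under 3 set to 3. Of 12790 genes tested, 70 (0.547%) were called higher and 36 (0.281%) lower in both Sox9-rich libraries. Within a side, 659 genes (5.15%) lay 1.5-fold apart between A and B, and 405 (3.17%) between C and D. Between a single Sox9-rich and a single Sox9-poor library, 5.14% to 5.74% of genes lay as far apart, near the share for A and B and above that for C and D. With all nuclei, Sox9 UMIs or not and without the airway limit, 394 of 13675 genes (2.88%) were called higher and 50 (0.366%) lower. The plot of median ratio against level shows that most genes lie near 0, with a median log2 ratio of 0.01.

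**Figure D2:**
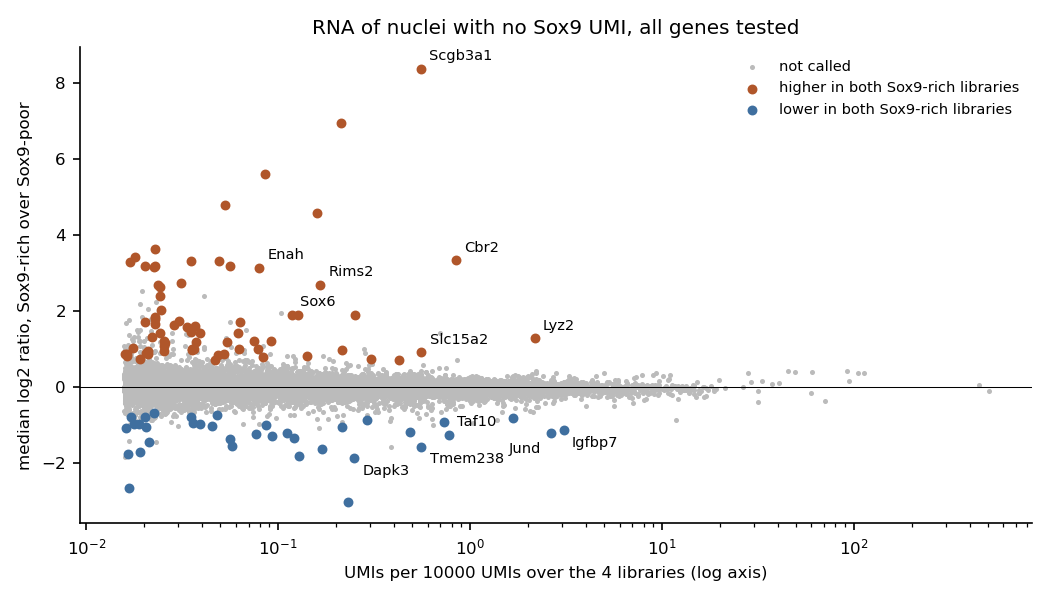
Each of the 12790 genes tested by its level over the 4 libraries (log axis) and the median of its 4 log2 ratios of a Sox9-rich over a Sox9-poor library. Called genes, 70 higher and 36 lower, are coloured; the genes far above the rest include the airway gene Scgb3a1.

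Airway genes led the higher side. Of the airway secretory list, 8 of 11 genes tested were called higher and 0 lower, with a median log2 ratio of 3.29, and of the ciliated list 4 of 10, with 1.85. The ciliated median was 0.60 without library D and 3.64 without C. Scgb3a1, a secretoglobin of airway secretory cells, stood at 0.754 per 10000 in C and 1.03 in D. It had 1 UMI in B and 0 in A, where a limit of 3 UMIs is 0.00224 per 10000. Bpifa1, a secreted airway defence protein, had 0 UMIs in A and B and stood at 0.196 in C and 0.536 in D. Scgb3a1 was at a like level in every range of nuclei, with 0.735, 0.878 and 0.680 in the ATII-high, ATI-high and transitional-high nuclei of C and 0.963, 1.14 and 1.04 in those of D. Both genes were also used in the airway limit, so their remaining levels depend on it, and the source of their UMIs was not tested. Foxj1, the master regulator of motile cilia, stood at 0.000747, 0.00207, 0.0175 and 0.0617 in A to D.

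The summed airway secretory list moved with the sides, at 1.80, 1.70, 4.19 and 6.65 UMIs per 10000 in A to D; 6 members had 0 UMIs in A, 4 in B and 0 in C and in D. The summed ciliated list stood at 0.352, 0.418, 0.461 and 1.27, and the basal list at 0.0525 or less in every library. Counts of called genes, peaks and gene windows were therefore repeated without nuclei whose airway and ciliated lists together reached 10 per 10000, an alternative added after the data were seen. It called 24 of 12587 genes (0.191%) higher, each also among the 70, and 38 (0.302%) lower, of which 32 were also among the 36. The ciliated list then had 0 of 4 genes called, and Foxj1 stood at 0.00341 or less in every library. The removal used these lists, so such a fall was fixed in advance. The airway secretory list still had 5 of 9 genes called higher, with the same limit on members near 0 UMIs in A and B. Its sum then stood at 0.865, 0.976, 2.24 and 2.45 in A to D. Of the peaks below, the same alternative called 320 (0.506%) more and 10 (0.0158%) less open, with 240 and 10 shared. Most lower gene calls were thus shared with that alternative and most higher ones were not.

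Several higher genes are given next; Rims2, Enah and Plat were picked after their values were seen, and Cp and Sorbs2 lost their call without airway or ciliated nuclei. Slc15a2, a proton-coupled peptide transporter of ATII cells, stood at 0.345, 0.356, 0.706 and 0.622 in libraries A to D (Poisson 95% interval 0.314 to 0.378 in A and 0.584 to 0.662 in D). The nearest pair differed 1.75-fold, and 1.71-fold without airway or ciliated nuclei. Its level was higher in both Sox9-rich libraries in each range, with nearest-pair folds of 1.43 in ATII-high, 2.14 in ATI-high and 3.38 in transitional-high nuclei. Its level was lower, not higher, in nuclei with 5 or more Sox9 UMIs, at 0.471 in C and 0.417 in D.

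Sox6, the cartilage partner of Sox9, stood at 0.0358, 0.0527, 0.142 and 0.189 in A to D, a nearest-pair fold of 2.69 (2.56 without airway or ciliated nuclei). In the same libraries, nuclei with 1 to 2 Sox9 UMIs had 0.299 in C and 0.393 in D, and those with 5 or more had 2.34 and 2.25. Nuclei with no Sox9 UMI in C and D thus lay between the nuclei of A and B and those of C and D with Sox9 UMIs. By range, the nearest pair for Sox6 differed 1.39-fold in ATII-high, 2.65-fold in ATI-high and 3.37-fold in transitional-high nuclei.

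Rims2, known from the active zone of synapses, stood at 0.0344, 0.0393, 0.231 and 0.248, a nearest-pair fold of 5.87. With 5 or more Sox9 UMIs it reached 0.481 in C and 0.395 in D. It was the only gene outside the airway list called higher in all 3 ranges. Enah, which acts on actin filaments, stood at 0.0134 in A and in B, 0.0916 in C and 0.155 in D, and at 0.431 and 0.445 with 5 or more Sox9 UMIs. Plat, tissue plasminogen activator, stood at 0.00971, 0.0155, 0.0379 and 0.0444, far under the 1.72 and 1.17 of nuclei with 5 or more. Dclk1, a doublecortin-like kinase, stood at 0.125, 0.142, 0.250 and 0.279 (nearest pair 1.76-fold), and at 0.404 and 0.344 with 5 or more.

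Cbr2, a carbonyl reductase of club cells, stood at 0.122, 0.128, 0.886 and 1.80. Without airway or ciliated nuclei it stood at 0.0756, 0.108, 0.183 and 0.176, so the nearest pair went from 6.91-fold to 1.63-fold. Lyz2, a lysozyme of ATII cells and macrophages, stood at 0.741, 1.68, 2.79 and 2.69 in libraries A to D. Its call was lost with all nuclei, with the same mix of ranges in each library, and without the 5% of nuclei with the most UMIs. The macrophage genes Cd68 and Csf1r were not called, and Cd68 stood at 0.0515, 0.0496, 0.0566 and 0.0543. Cp (ceruloplasmin) stood at 0.102, 0.0848, 0.269 and 0.449, but at 1.13-fold for the nearest pair without airway or ciliated nuclei. Sorbs2, a scaffold protein, stood at 0.203, 0.230, 0.347 and 0.373. It lost its call in 6 of 15 alternatives, of which those that leave out a library cannot lose one. Its nearest-pair fold was 0.967 without airway or ciliated nuclei. The antisense gene Sorbs2os was also called, and the sources used here do not give whether counting used strand.

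The 10 lower genes given next met the rule for named genes. Tmem238, a membrane protein gene, stood at 1.02, 0.912, 0.282 and 0.378 in libraries A to D, a nearest-pair fold of 0.414. Its level was nearly the same with 5 or more Sox9 UMIs, 0.237 in C and 0.310 in D. Igfbp7, which binds insulin-like growth factors, stood at 5.07, 4.32, 2.04 and 2.22 (nearest-pair fold 0.515). It was lower still with Sox9, at 1.30 and 1.55 with 1 to 2 Sox9 UMIs and 0.451 and 0.693 with 5 or more. The AP-1 gene Jund stood at 4.84, 3.31, 1.66 and 1.85 (0.559), and at 2.18 and 2.30 with 5 or more Sox9 UMIs.

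Taf10, a subunit of the general factor TFIID, stood at 1.23, 1.24, 0.418 and 0.652 (0.529). Dapk3, a death-associated kinase, stood at 0.672, 0.243, 0.105 and 0.119, with A far above B. Hras, a small GTPase, stood at 0.848, 0.661, 0.303 and 0.366. Bod1, which acts in chromosome alignment, stood at 0.341, 0.296, 0.145 and 0.166, and Pnrc1, a nuclear receptor coactivator, at 2.46, 2.13, 1.27 and 1.35. Scx (scleraxis), a tendon transcription factor, stood at 0.394, 0.431, 0.203 and 0.257, and at 0.0668 and 0.0733 with 5 or more Sox9 UMIs; its call was lost among nuclei with at least 10000 UMIs. Cited2, a transcriptional co-regulator, stood at 1.26, 0.819, 0.535 and 0.543 and lost its call in 5 of 15 alternatives. The other 8 named lower genes kept theirs in all 15. Alternatives that leave out a library could not lose a call, since fewer pairs must then pass. Other limits of fold or of UMIs per gene were not among the 15. At 2-fold, 10 of the 36 lower genes stayed called, and with at least 500 UMIs per gene 17.

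**Figure D3:**
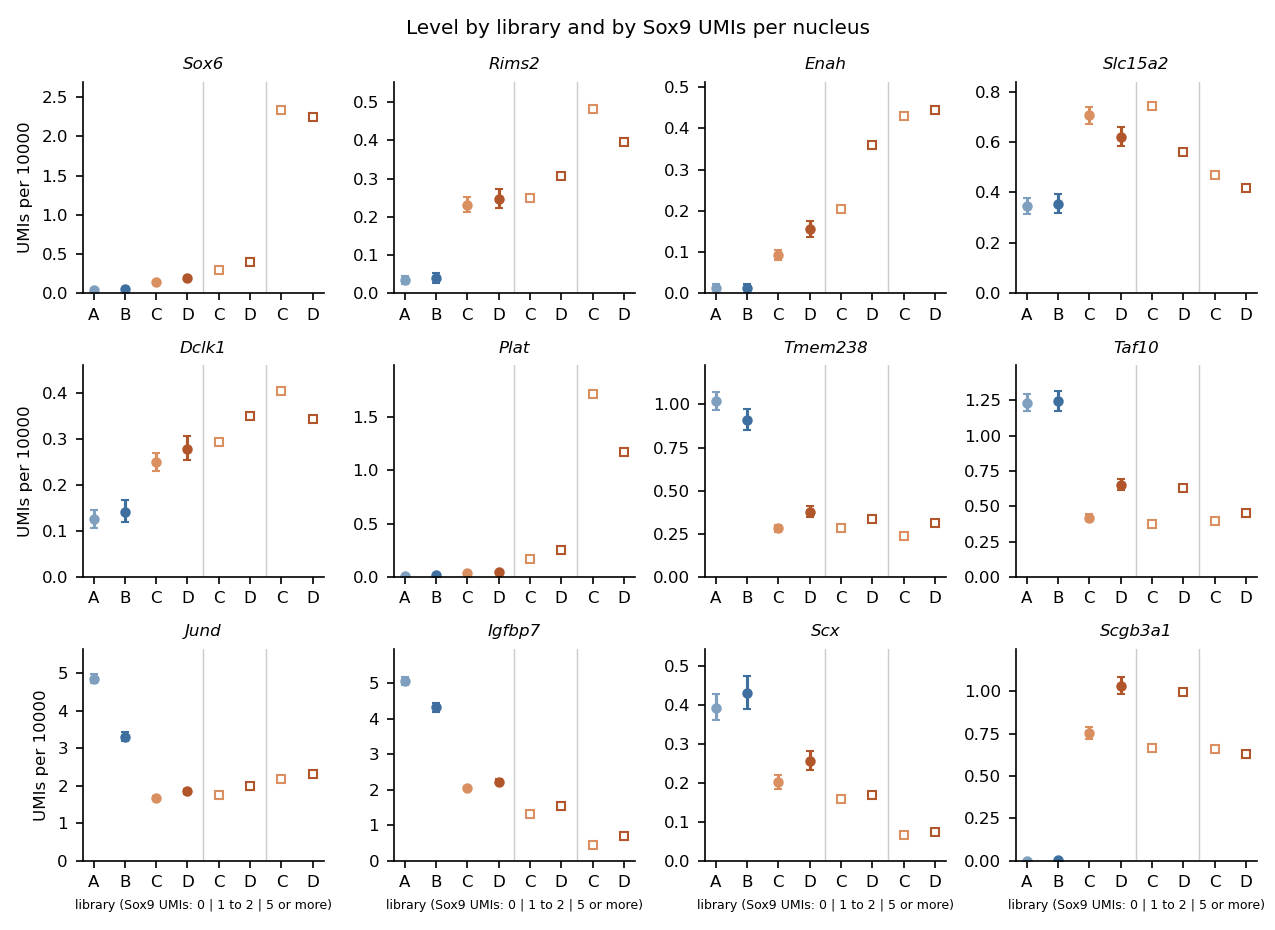
UMIs per 10000 UMIs of 12 genes. Filled points are nuclei with 0 Sox9 UMIs in libraries A to D, with exact Poisson 95% intervals, and open squares are nuclei of C and D with 1 to 2 and with 5 or more Sox9 UMIs. Sox6 and Plat are highest with 5 or more Sox9 UMIs, Igfbp7 and Scx lowest, and Tmem238 is at a like level in every class of C and D.

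Nuclei with 5 or more Sox9 UMIs, 197 in C and 114 in D, show how many called genes followed Sox9 within a library. Of the 70 higher genes, 19 were a further 1.5-fold or more higher there than in nuclei without Sox9 UMIs of the same library, in C and in D, and 20 were lower by as much. Among all genes tested these shares were 6.35% and 7.27%. Of the 24 higher genes left without airway or ciliated nuclei, 11 went further and 2 went back. Of the 36 lower genes, 10 went further and 3 back. Of the 38 lower genes called without airway or ciliated nuclei, 6 went further and 3 back. The nuclei with 5 or more Sox9 UMIs were not filtered by the airway and ciliated lists in either case. This reading shares the nuclei without Sox9 UMIs with the call itself.

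Inside the ranges, 15 of 10961 genes (0.137%) were called higher and 26 (0.237%) lower among ATII-high nuclei. Among ATI-high nuclei the counts were 23 (0.226%) and 36 (0.354%) of 10179, and among transitional-high nuclei 113 (1.06%) and 33 (0.309%) of 10667. Without airway or ciliated nuclei, 36 of 10414 genes (0.346%) were called higher among transitional-high nuclei, 35 of them among the 113, 11 of 10866 (0.101%) among ATII-high and 24 of 10066 (0.238%) among ATI-high nuclei. Lower calls there were 28 (0.258%) among ATII-high, 32 (0.318%) among ATI-high and 32 (0.307%) among transitional-high nuclei. Called higher in all 3 ranges were Bpifa1, Reg3g, Scgb3a1, Cbr2 and Rims2, and all of these but Cbr2 also without airway or ciliated nuclei. The 11 called lower in all 3 included Igfbp7, Tmem238, Taf10, Jund, Dapk3 and Bod1.

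The plot of list medians shows the other gene programmes. Of 21 ATII genes, 2 were called higher (Lyz1 and Lyz2) and 0 lower, with a median log2 ratio of 0.22 (0.01 over all genes tested); over all genes 0.547% were called higher and 0.281% lower. Lyz1, another lysozyme gene, lost its call without airway or ciliated nuclei, with a nearest-pair fold of 0.942 against 5.54 before. Of 24 ATI genes 0 were called, with a median of -0.10. With the same mix of ranges in each library the ATII and ATI medians were 0.09 and 0.02. The transitional list had 0 of 22 called and a median of -0.05. Lipid synthesis genes had 0 of 21 called and a median of 0.16; Fasn, the fatty acid synthase, stood at 4.02, 4.36, 5.18 and 5.73, so all 4 pairs pointed the same way while the nearest pair differed 1.19-fold.

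Of the cartilage list, 4 of 19 genes reached 100 UMIs, and Sox6 was called. Sox5 stood at 1.05, 0.860, 0.906 and 0.768, and Matn4, a matrix protein, at 1.02, 0.903, 1.08 and 1.03, with overlapping sides for Sox5. Col2a1, the main cartilage collagen, had 0, 11, 12 and 5 UMIs in A to D, too few for a call, and Matn1 had 0 UMIs in all 4. The p53 and senescence list (18 genes), the YAP list (13), the WNT list (11) and the Notch list (6) had 0 called; at 0.829% of all genes called in either direction, a count of 0 in lists of this size shows nothing about their members. The stress and AP-1 list had 1 of 15 called, Jund, and the interferon list 1 of 14, Cxcl10, whose nearest pair differed 1.40-fold without airway or ciliated nuclei (not called).

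**Figure D4:**
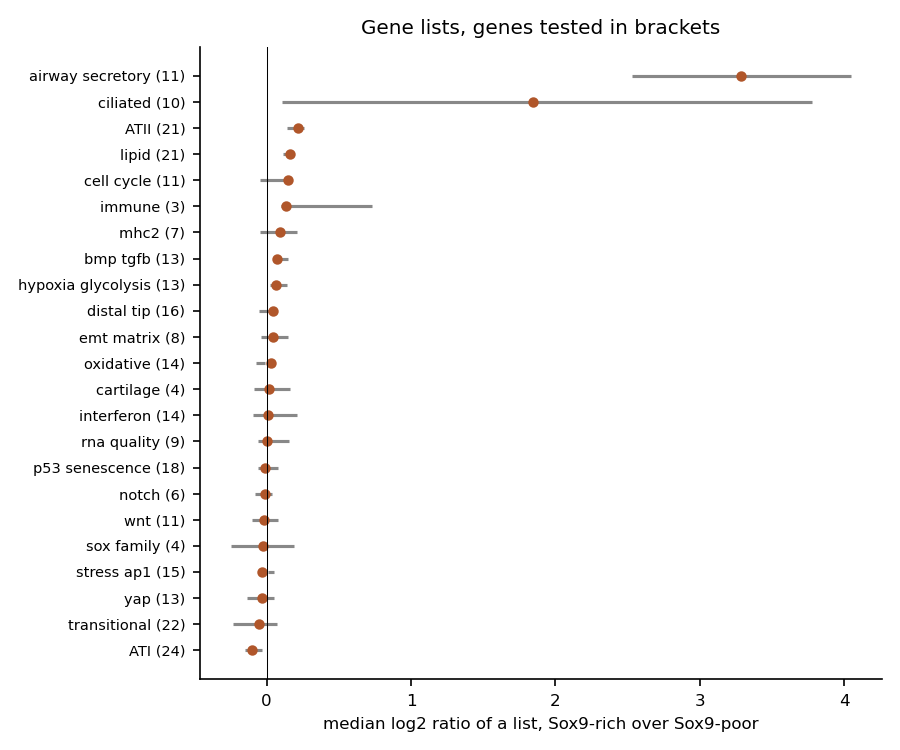
Median over the genes tested of each list of the log2 ratio of Sox9-rich over Sox9-poor libraries (points) and the range of that median over the 4 library pairs (lines), with the number of genes in brackets. The airway secretory list at 3.29 and the ciliated list at 1.85 stand far to the right, and the ATI list lies at -0.10.

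Chromatin was read from the same nuclei as ATAC counts in 116068 peaks. The clearest difference lay over Sox9 itself (chromosome 11, 112782210 to 112787757 in GRCm38), which 3 peaks overlap. The third, chr11:112784666-112785551, had 15, 7, 528 and 347 counts in A to D, or 0.0143, 0.0148, 0.245 and 0.178 per 10000 counts in peaks. Its nearest pair had a log2 ratio of 3.59, a larger difference than the plain folds given next for the other peaks. The second, chr11:112783490-112784356, had 27, 8, 276 and 216 counts (4.28-fold), and the first, chr11:112782331-112783169, had 68, 35, 452 and 357 (2.47-fold). These nuclei had been chosen to have no Sox9 UMI, but their libraries had been chosen by Sox9 RNA. Peak counts do not tell fragments of the chromosomal gene from those of a copy carried by a virus, and this was not tested.

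At the third peak the level followed Sox9 UMIs within both libraries. In C it was 0.245 with 0 Sox9 UMIs, 0.505 with 1 to 2 and 1.11 with 5 or more, and in D 0.178, 0.342 and 0.850. Nuclei without Sox9 UMIs had a count there in 1.05% and 0.800% of cases in A and B and in 16.6% and 19.3% in C and D. Thinned to 1000 ATAC counts per nucleus, which left out 274, 150, 204 and 111 nuclei, these shares were 0 of 967 (which allows up to 0.310%), 0.167%, 2.60% and 0.998%.

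**Figure D5:**
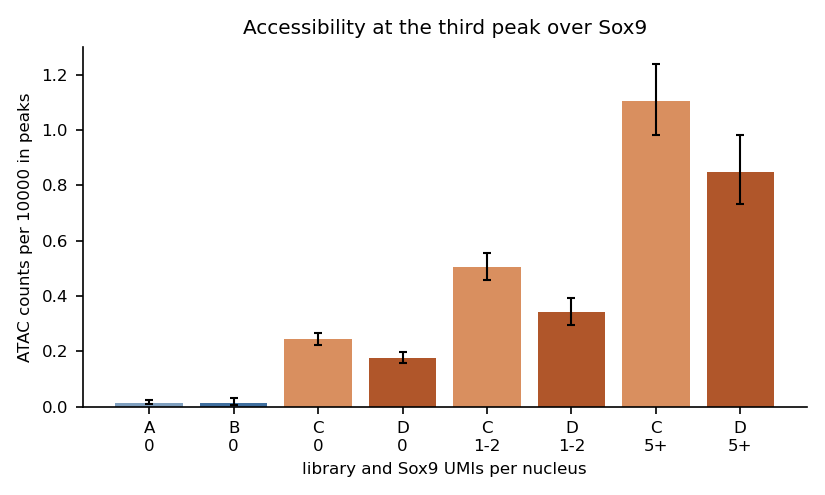
ATAC counts in the third peak over Sox9 per 10000 counts in peaks, by library and Sox9 UMIs per nucleus, with exact Poisson 95% intervals. With 0 Sox9 UMIs, C and D stand above A and B, and within C and D the level is highest at 5 or more Sox9 UMIs.

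Nuclei without Sox9 UMIs were also split by a count in that peak, and of 11 genes compared, 3 (Rims2, Enah and Dclk1) pointed the same way in both libraries. In C, Sox6 stood at 0.189 (interval 0.152 to 0.234) in the 353 nuclei with a count and 0.131 (0.115 to 0.148) in the 1771 without. In D it stood at 0.184 in the 253 with a count and 0.190 in the 1061 without. Igfbp7 stood at 2.13 with a count and 2.02 without in C, with overlapping intervals. In D it pointed the other way, at 1.91 (1.77 to 2.06) with a count and 2.30 (2.22 to 2.39) without, where the intervals lay apart. Rims2 was higher with a count, at 0.233 against 0.230 in C and 0.303 against 0.233 in D. Dclk1 was lower, at 0.196 against 0.262 in C and 0.236 against 0.291 in D. For Rims2, Enah and Dclk1 alike, the intervals overlapped in both libraries. Nuclei with a count were also deeper, with median ATAC counts of 13449 against 8285 in C and 20222 against 11892 in D.

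Over all peaks, 387 of 66306 with at least 200 counts (0.584%) were called more open in both Sox9-rich libraries and 14 (0.0211%) less open. With median-of-ratios size factors the split was 182 to 36, and with all libraries thinned to the ATAC total of B (and a minimum of 100 counts) 198 to 41. Between A and B, 8.40% of peaks lay 1.5-fold apart, and between C and D 0.517%. The ATAC total was 10455062 in A and 4734501 in B, against 21538147 in C and 19542419 in D, so that depth moved with the sides; its part in these calls was not otherwise tested. Among peaks with at least 500 counts, 10 were called more and 3 less open. Of the 387, 8 (2.07%) lay within 1000 bp of a listed transcription start, against 17.7% of all peaks tested; called peaks had a median of 253 counts against 460 for all tested, and 35 of the 387 were called again at equal ATAC totals.

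Outside Sox9, the largest nearest-pair fold was 4.32, at chr2:118553934-118555102, whose nearest listed start is that of Bmf, an apoptosis gene, and which had 12, 2, 120 and 97 counts. A peak at Slc27a1, a fatty acid transporter (chr8:71572576-71573492), had 15, 8, 126 and 83 counts (2.51-fold), and a peak in Ttc7 20, 4, 97 and 94 (2.35-fold). Among less open peaks, chr13:119488071-119488946 at the start of Tmem267 stood at 0.504, 0.494, 0.234 and 0.246 per 10000 (0.498). A peak at chr1:24612336-24613227, in a stretch known as a nuclear copy of mitochondrial DNA, stood at 1.43, 1.91, 0.683 and 0.677; it and the Bmf peak lie over 2000 bp from a gene and were picked after their values were seen. The mitochondrial share of RNA in these nuclei was 5.22%, 5.37%, 6.50% and 6.19%.

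No gene called by RNA that had a tested window in chromatin had a called one. Summed over a gene and 2000 bp on either side, 18 of 18231 windows (0.0987%) were called more open and 2 (0.011%) less open (15 and 2 of 18098, 0.0829% and 0.0111%, without airway or ciliated nuclei), and the Sox9 window differed 4.46-fold. Of the 70 higher genes, 63 had a tested window, and 0 of these were called. In 30 of them (47.6%) the window was more open in all 4 pairs, against 23.7% of all genes tested. Of the 27 windows of lower genes, 17 (63.0%) were less open in all 4 pairs, against 32.2% of all. Without airway or ciliated nuclei, the RNA calls left 8 of 20 windows on the same side and 18 of 31 (58.1%). The Slc15a2 window stood at 0.276, 0.275, 0.370 and 0.355 per 10000 (1.28-fold), and the Sox6 window at 0.807, 0.803, 1.03 and 0.971 (1.20-fold). At Igfbp7 the sides overlapped, with 1.23, 1.19, 1.22 and 1.28. Some peaks over starts of higher genes went otherwise. That of Enah stood at 0.0937, 0.0760, 0.0548 and 0.0568, less open in all 4 pairs though not called. At the Sox6 start, with 36 counts, the sides overlapped. A called peak in the window was found for Pigr, Dclk1, Trib2 and Dnah5, against 1.49% of all genes tested (Pigr and Dnah5 lost their RNA call without airway or ciliated nuclei, Dclk1 and Trib2 did not); a less open peak was found for 0 of the 36 lower genes and 0.0235% of all.

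The 250 bases before the start of 3 genes are shown, in RefSeq's GRCm38.p6 sequence. Their RNA was called and a peak lies over each, which also held for many other called genes. Among the peaks over these starts, only that of Pigr was called. Capitals mark the Sox motifs ACAAAG and ACAATG and the GC box GGGCGG, searched on both strands, so that CCGCCC is a GC box on the other strand. The windows are chr16:36784963-36785212 (minus strand) for Slc15a2, chr1:130826434-130826683 (plus strand) for Pigr and chr7:4789561-4789810 (minus strand) for Tmem238.
Slc15a2: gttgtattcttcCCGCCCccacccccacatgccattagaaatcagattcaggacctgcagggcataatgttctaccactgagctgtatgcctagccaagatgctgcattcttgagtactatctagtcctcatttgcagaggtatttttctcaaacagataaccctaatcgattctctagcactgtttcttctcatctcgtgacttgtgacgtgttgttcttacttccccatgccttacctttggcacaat
Pigr: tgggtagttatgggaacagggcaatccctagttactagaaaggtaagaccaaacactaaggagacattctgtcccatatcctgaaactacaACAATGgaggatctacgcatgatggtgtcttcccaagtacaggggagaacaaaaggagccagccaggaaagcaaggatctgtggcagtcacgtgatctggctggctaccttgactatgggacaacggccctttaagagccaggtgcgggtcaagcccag
Tmem238: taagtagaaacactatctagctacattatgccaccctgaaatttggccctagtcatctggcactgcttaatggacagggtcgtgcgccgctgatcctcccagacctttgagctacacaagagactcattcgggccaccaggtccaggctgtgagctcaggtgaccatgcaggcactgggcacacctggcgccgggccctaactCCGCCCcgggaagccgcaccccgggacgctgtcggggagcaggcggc
Among 20267 promoters of this length, ACAAAG occurred in 15.6%, ACAATG in 9.88% and GGGCGG in 39.7%. Pigr, the receptor that carries immunoglobulins across epithelia, has 1 ACAATG; its RNA stood at 0.0157, 0.0165, 0.0391 and 0.0623, and the peak over its start at 0.0249, 0.0253, 0.0432 and 0.0394 per 10000 (1.55-fold, called). The peak over the Slc15a2 start stood at 0.0469, 0.0486, 0.0715 and 0.0614 (1.26-fold, not called). The Tmem238 peak stood at 0.335, 0.264, 0.239 and 0.260, where B and D lie side by side although RNA differed more than 2-fold. Slc15a2 and Tmem238 each have 1 GC box, and neither Sox motif occurs in these 2 windows. Motifs and promoters were picked after the values were seen, and a match is a description of the letters only.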

How the data were processed

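RNA and ATAC of single nuclei were used as raw counts per gene (32285) or peak (116068) and nucleus, as the authors deposited them in 2 pooled matrices. The builds GRCm38 and mm10 and the tools Signac 1.10.0, Seurat 4.3.0 and Cell Ranger 6.0.1 are named, without roles, in the submitters' processing notes. For the peak caller, doublets and filters on nuclei, no step is named in the sources used here. Doublets were not called, so they can remain. Libraries were split by the prefix of the barcode.

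Counts of kept nuclei were summed per library and scaled to 10000, so that deep nuclei weigh more. Counts under 3 were set to 3, and a call also needed more than 3 counts in each library of the higher side. The median of the 4 log2 ratios describes a gene, and its median over genes a list. The sides were set by measured Sox9 and no label gives them, so edgeR or another test was not run. On simulated counts for 12790 genes, 2-fold differences were found in 82% (higher) and 74% (lower) of cases with 8 false calls. For 3-fold differences these values were 100% and 93%, with 10 false calls. The simulated noise was independent for each gene and library, with no difference in cell mix between libraries. Neither its false calls nor its shares of differences found therefore give a rate for the real libraries.

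Members, gene lists (29) and the rule for names were chosen with earlier results of these data known. Named genes are Sox9, called genes with a pooled level of at least 0.2 per 10000 (up to 12 per direction by nearest-pair fold, without airway, mitochondrial and unnamed genes), up to 4 members of a list, and up to 6 peaks per direction at genes; others were picked after their values were seen. Gene positions came from RefSeq (GRCm38.p6), for 81.5% of genes. Python 3.11.15, numpy 2.4.6, scipy 1.17.1, pandas 2.3.3 and matplotlib 3.10.9 were used.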

Additional observations from a re-analysis of the deposited data

How the results depend on the processing

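Main counts were 70 genes higher and 36 lower, and 387 peaks more and 14 less open. All nuclei gave 394 genes higher, and 2397 peaks more and 38 less open; this alternative also drops the airway limit. No minimum gave 213 and 196 genes and 2464 and 165 peaks. A minimum of 500 gave 19 and 17 genes and 10 and 3 peaks. A limit of 2-fold gave 32 and 10 genes and 17 and 2 peaks, and a limit under 1.5-fold gave 226 and 156 genes and 2860 and 327 peaks. Peaks taken as 0 or 1 per nucleus gave 234 and 9, size factors 182 and 36, and thinning, added after the data were seen together with a minimum of 100 counts, 198 and 41. Of these, 35 and 7 were main calls. The nuclei without airway or ciliated lists gave 24 genes higher, and 36 against 113 among transitional-high nuclei. The cause of these shifts was not tested, apart from the limit or minimum itself.

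Leaving out a library in turn gave 125 to 234 genes higher, 105 to 160 lower, 808 to 4010 peaks more open and 70 to 345 less open, since fewer pairs must then pass. The highest peak counts came without A. With the same mix of ranges the median log2 ratio was 0.0866 for the ATII list and 0.0238 for the ATI list. With all nuclei it was -0.28 for the ATI, 5.59 for the airway secretory and -0.13 for the cartilage list. Without airway or ciliated nuclei it was 0.92 for the airway secretory and -0.13 for the ciliated list. Of the called genes followed one by one through 15 alternatives, the median log2 ratio kept its sign in each, while the nearest-pair fold fell below 1 for Lyz1 (0.942) and Sorbs2 (0.967) without airway or ciliated nuclei.

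No paired analysis was possible because barcode prefixes carry no replicate numbers. With 2 libraries a side, the spread within a side rests on 1 pair of libraries each, and the sides were set by Sox9. Genes with few UMIs were not tested, and a missing call at this depth is not a sign of equal levels.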

Other observations

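A few genes of other lists differed in all 4 library pairs without reaching 1.5-fold between the nearest pair. Gclm, which helps make glutathione, stood at 0.985, 0.949, 0.658 and 0.707 UMIs per 10000 in A to D, and Gpx2, a glutathione peroxidase, at 0.490, 0.479, 0.626 and 0.666. Gpx2 was higher still in nuclei with 5 or more Sox9 UMIs, at 2.97 in C and 2.87 in D, while Gclm stood there at 0.912 and 0.840. Shh, a signal of the lung epithelium, stood at 0.311, 0.362, 0.243 and 0.242, and at 0.0869 and 0.0733 with 5 or more Sox9 UMIs. Gdf15, a stress-induced cytokine, stood at 0.947, 0.885, 0.606 and 0.739, but at 2.25 and 1.54 with 5 or more.

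Mitochondrial genes did not move together. The gene mt-Co1 stood at 83.3, 81.7, 65.3 and 63.0, lower in both Sox9-rich libraries, while mt-Nd1 stood at 40.7, 41.6, 54.3 and 54.0 and mt-Cytb at 48.9, 51.2, 66.0 and 65.7. No nearest pair of these 3 genes reached 1.5-fold.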
